A study of Mus musculus with 53 samples.

Results

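The 9 genes described here, known from radial glia and neural stem cells, were followed across a series on mouse embryonic stem (ES) cells: Fabp7, Ptn, Gpm6b, Nes, Slc1a3, Olig1, Olig2, Sox9 and Gfap. They were picked by name, through the probe sets that carry exactly 1 gene symbol equal to theirs. This gave 24 of 45037 probe sets, and each gene was led by its brightest probe set, judged by the mean of the 53 arrays, so the 9 genes are 9 of 18193 that have a probe set of their own. The study measured RNA on Affymetrix arrays in 15 groups, to ask how loss of the Polycomb proteins Ezh2 or Eed alters expression in ES cells before and during differentiation. The neural groups were neuronal stem cells derived from NPc (2 arrays), called neural stem cells (NSC) here, and neuronal progenitors marked by Sox1-GFP (3 arrays), a fluorescent reporter of an early neural gene. The NSC label spells NPc as written here, and no further step of the derivation was given in the labels. The other non-ES groups were mesoendodermal cells in which the promoter of brachyury (T) drives GFP (T-GFP, 2 arrays) and mouse embryonic fibroblasts (MEF, 2 arrays). Ezh2-null ES cells were sampled at day 0 (6 arrays), day 2 (4), day 6 (5) and day 8 (2) of withdrawal of LIF, the cytokine that holds mouse ES cells undifferentiated. Cells labelled Eed-null were sampled at day 0 (5 arrays), day 2 (2) and day 6 (2). Wild-type (WT) ES cells were sampled at day 0 (7 arrays, lines J1, CJ7 and E14tg1), day 2 (4, J1 and CJ7), day 6 (5, J1 and CJ7) and day 8 (2, CJ7). The line of either mutant was not named, so genotype and line cannot be told apart, and feeder fibroblasts, on which the ES cells grew, were depleted before harvest. The arrays of a group are labelled as biological replicates without a statement of what was repeated, so p-values measure the spread between these samples, which may be technical.

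Radial glia are the elongated progenitors of the developing brain, and the neural stem cells kept in culture share much of their gene expression. Their genes fall into several roles. Sox9, Olig1 and Olig2 encode transcription factors: Sox9 acts in neural stem cells and in the glial lineage, and also in cartilage and other tissues, while Olig1 and Olig2 act in the oligodendrocyte lineage, with Olig2 also used by motor neuron progenitors. Fabp7 encodes brain lipid-binding protein, a fatty acid carrier that marks radial glia. Slc1a3 encodes GLAST, a glutamate transporter of radial glia and astrocytes. Ptn encodes pleiotrophin, a secreted growth factor that binds the receptor phosphatase Ptprz1. Gpm6b encodes a membrane proteolipid of neurons and glia. Nes (nestin) and Gfap (glial fibrillary acidic protein) encode intermediate filaments, of neural progenitors and of astrocytes.

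The sequences upstream of 4 genes are shown because their signals took 3 courses in these arrays: Fabp7 was high in NSC and in Sox1-GFP cells, Slc1a3 and Olig2 in NSC, and Gfap was near the middle of the array in both. Each sequence is the 250 bases before the annotated start of the gene, 5′ to 3′ on the strand of the gene, from RefSeq on GRCm38.p6, with CpG dinucleotides in capitals. The window of Fabp7 lies at chr10:57784673-57784922, plus strand, Slc1a3 at chr15:8710808-8711057, minus strand, Olig2 at chr16:91225300-91225549, plus strand and Gfap at chr11:102897201-102897450, minus strand.
Fabp7: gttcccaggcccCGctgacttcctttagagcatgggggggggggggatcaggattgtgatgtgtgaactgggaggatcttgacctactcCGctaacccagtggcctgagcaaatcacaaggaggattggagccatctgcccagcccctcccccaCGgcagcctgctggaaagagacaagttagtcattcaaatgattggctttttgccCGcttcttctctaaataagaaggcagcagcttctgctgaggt
Slc1a3: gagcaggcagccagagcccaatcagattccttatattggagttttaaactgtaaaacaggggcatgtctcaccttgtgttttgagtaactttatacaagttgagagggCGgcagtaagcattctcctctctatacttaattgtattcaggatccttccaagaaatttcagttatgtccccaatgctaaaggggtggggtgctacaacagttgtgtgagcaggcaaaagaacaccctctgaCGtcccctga
Olig2: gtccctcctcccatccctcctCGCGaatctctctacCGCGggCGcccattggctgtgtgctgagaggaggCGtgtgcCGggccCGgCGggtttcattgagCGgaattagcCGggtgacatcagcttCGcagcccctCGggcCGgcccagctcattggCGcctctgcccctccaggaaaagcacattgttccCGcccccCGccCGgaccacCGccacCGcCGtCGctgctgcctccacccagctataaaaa
Gfap: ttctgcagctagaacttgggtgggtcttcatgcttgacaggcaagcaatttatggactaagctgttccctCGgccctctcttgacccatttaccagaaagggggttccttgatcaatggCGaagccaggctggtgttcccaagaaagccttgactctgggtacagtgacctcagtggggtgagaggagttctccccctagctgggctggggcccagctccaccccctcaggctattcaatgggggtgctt
The Olig2 window held 22 CpG dinucleotides and a ratio of observed to expected CpG of 0.82, which was higher than in 82.6% of 32851 promoter windows of the same length. The other 3 were CpG-poor beside a median ratio of 0.37 over those windows. Fabp7 had 4 CpG (ratio 0.21), Slc1a3 had 2 (0.16) and Gfap had 2 (0.1). Windows were found for 7 of the 9 genes, and of those not printed Gpm6b and Nes held 15 CpG each (ratios 0.65 and 0.69) and Ptn held 5 (0.3). The 6 motifs were searched on both strands, with no match overlapping another in the windows of the 7 genes. The Olig2 window held a SOX motif (AACAATG, read on the other strand as CATTGTT, from -68 to -62 of the gene start), which 3.29% of all windows hold, and TATAAA from -8 to -3, which 12.37% hold. The Slc1a3 window held a STAT motif (TTCNNNGAA, as TTCCAAGAA, from -96 to -88), which 7.02% of windows hold, and the TATA letters on the other strand from -161 to -156. The POU octamer ATGCAAAT (1.6% of windows), the RBPJ letters GTGGGAA (5.42%) and the E-box CAGCTG (13%) were found in none of the 7. A match is a run of letters in this window and not a shown site of binding.

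Array medians lay between 50.5 and 63 intensity units, and precision is limited by how many arrays a group has. The Ezh2 probe set averaged 214 ± 31.6 in Ezh2-null cells and 1451 ± 247 in WT cells at day 0 (SD, n = 6 and 7), whereas the Eed probe set averaged 2956 ± 130 in cells labelled Eed-null and 2536 ± 276 in WT (n = 5 and 7). The Eed signal was thus not lower under its label, and which part of the gene was altered is not stated in the labels. Sox1 averaged 762 ± 23.3 in Sox1-GFP cells (n = 3), 43.5 ± 2.83 in NSC (n = 2) and 15.8 ± 10.6 in WT at day 0 (n = 7). The summed signal of 10 pluripotency genes was 285 to 318 in NSC, 2825 to 5440 in Sox1-GFP cells and 27077 to 33272 in WT at day 0, so the Sox1-GFP arrays still held signal of such genes. The summed signal of 14 fibroblast genes was 1450 to 1469 in NSC and 744 to 783 in Sox1-GFP cells, against 38554 to 44811 in MEF. A second set of 14 arrays, of all 3 genotypes at days 2 and 6, stood apart in how probe sets of the same gene related to each other. Mutant and WT arrays of these days are therefore also compared within a set, and changes from day 0 are also given with the set as a block where that moves a call. Only arrays of days 2 and 6 were scored for the set, and the block counts all others outside the second set. In WT at day 2 the first set is line J1 and the second is line CJ7, so set and line cannot be told apart there.

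In NSC, 6 of the 9 genes were higher than in Sox1-GFP cells and none was lower, where a call needs an adjusted p under 0.05 in the limma fit and at least 2-fold on log2(intensity + 32). Of all 13807 genes tested, 5.53% were called higher in this comparison. The 6 were Olig1, Slc1a3, Olig2, Gpm6b, Sox9 and Ptn, and the others, judged by their leading probe sets, were Fabp7, Nes and Gfap. All 9 genes passed the filter on low values, but Olig1 and Olig2 did so through the NSC arrays alone, so their difference was built into that filter and is given below as a description without a p. Of the other 7 genes, 4 were called. In samples of many cells, fewer cells of a type and less RNA per cell cannot be told apart.

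**Figure D1:**
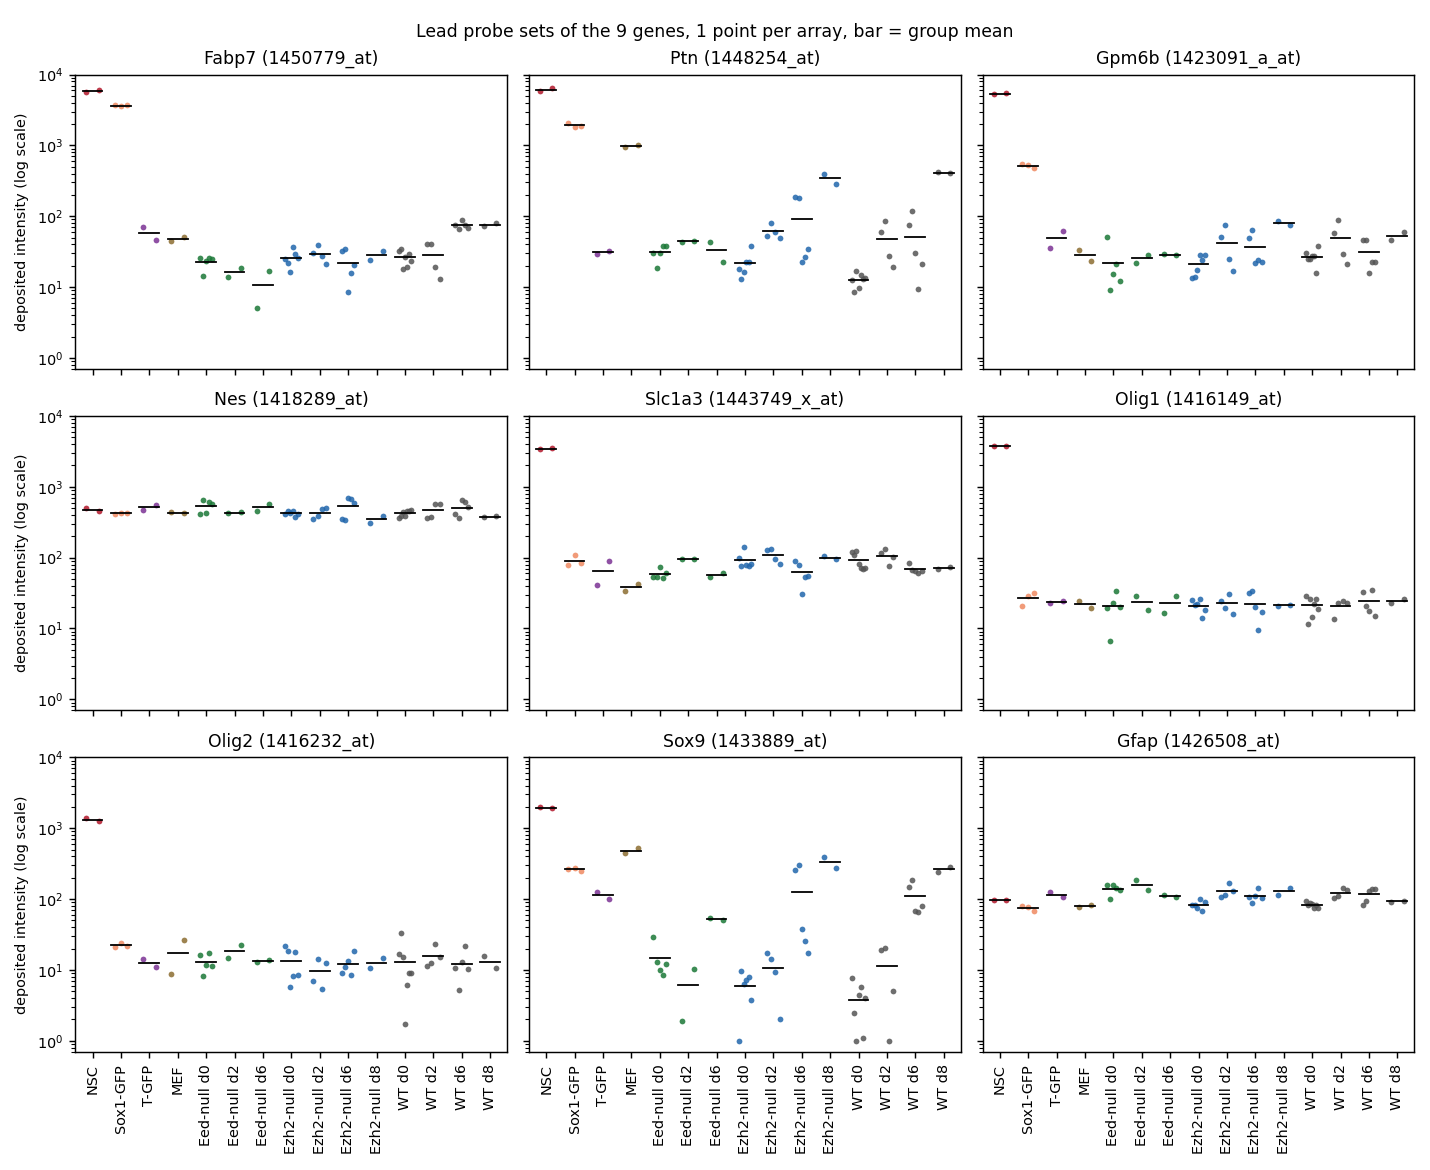
Array intensity of the leading probe set of each of the 9 genes (log axis, arbitrary intensity units) in every group, with 1 point per array and a bar at the group mean. Slc1a3, Olig1 and Olig2 stand high in NSC alone, and Fabp7, Ptn and Gpm6b stand high in NSC and Sox1-GFP cells. Ptn and Sox9 also stand above day 0 in MEF and at day 8. The leading probe sets of Nes and Gfap stay within a narrow band in every group.

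Olig1 gave 3708 and 3798 intensity units in the NSC arrays, against 21.1 to 31.2 in the Sox1-GFP arrays and at most 34.9 in any other array. The fitted difference from Sox1-GFP cells was 6.01 ± 0.17 on log2(intensity + 32) (SE), with the Sox1-GFP signal under the array median. Olig2, its neighbour in function, gave 1375 and 1281 in NSC, against 20.8 to 23.8 in Sox1-GFP cells and at most 33.5 elsewhere. The fitted difference was 4.65 ± 0.18, again from a signal under the array median. For both genes the 2 NSC arrays lay far above every other array, and each of the other 14 groups overlapped the next in order of mean.

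Slc1a3 showed the same division. Its leading probe set gave 3362 and 3486 in NSC, against 77.7 to 107.6 in Sox1-GFP cells and 31 to 140.3 in all other groups. The difference between NSC and Sox1-GFP cells was 4.84 ± 0.22 (limma adjusted p = 2.76e-22). All 6 probe sets of Slc1a3 were called higher in NSC than in Sox1-GFP cells, by 1.65 to 4.87 on the log2 scale. None of the 6 was called between Sox1-GFP cells and WT at day 0, where the leading one changed by -0.01 ± 0.17 (limma adjusted p = 0.955).

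Gpm6b, Ptn and Sox9 were high in NSC and intermediate in Sox1-GFP cells. Gpm6b gave 5236 and 5459 in NSC, against 480 to 543 in Sox1-GFP cells and 15.8 to 38.0 in WT at day 0. The 3 groups did not overlap, and the difference between NSC and Sox1-GFP cells was 3.30 ± 0.28 (limma adjusted p = 4.17e-13). Ptn gave 5789 and 6360 in NSC, against 2068, 1838 and 1905 in Sox1-GFP cells, a difference of 1.63 ± 0.41 (limma adjusted p = 0.00106). Sox9 gave 1965 and 1904 in NSC, against 253 to 279 in Sox1-GFP cells, a difference of 2.72 ± 0.43 (limma adjusted p = 1.26e-06). A dimmer Sox9 probe set differed by 0.85 and one of Ptn by 0.93, both short of the 2-fold limit.

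Fabp7 was close to its highest level already in Sox1-GFP cells. It gave 5659 and 5981 in NSC, against 3661, 3577 and 3723 in Sox1-GFP cells and 17.8 to 34.5 in WT at day 0. NSC and Sox1-GFP arrays did not overlap, but the difference of 0.67 ± 0.18 (limma adjusted p = 0.00217) was under 2-fold. As a rank among all probe sets of an array, Fabp7 lay at the percentiles 99.5 and 99.6 in NSC and 98.8 to 99 in Sox1-GFP cells. Olig1 lay at the percentile 98.9 in both NSC arrays and at 26.9 to 36 in Sox1-GFP cells.

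Against undifferentiated WT cells, 7 of the 9 genes were higher in NSC, where 12.3% of all genes were called higher, and 4 of the 9 were higher in Sox1-GFP cells, where the share was 9.33%. Both comparisons use the same 7 WT arrays. The NSC count includes Olig1 and Olig2, which passed the filter on low values through the NSC arrays alone. Their calls were thus built into that filter, and the others called were Fabp7, Ptn, Gpm6b, Slc1a3 and Sox9. In NSC the differences were 7.10 ± 0.36 for Ptn, 6.66 ± 0.16 for Fabp7, 6.52 ± 0.25 for Gpm6b and 5.78 ± 0.38 for Sox9. In Sox1-GFP cells the same genes differed by 5.46 ± 0.31, 5.99 ± 0.13, 3.22 ± 0.21 and 3.06 ± 0.32, with limma adjusted p-values of 8.59e-17 or less for Fabp7, Ptn and Gpm6b and 9.17e-11 for Sox9. Olig1, Olig2 and Slc1a3 differed by 6.16 ± 0.15, 4.95 ± 0.15 and 4.82 ± 0.19 in NSC. In Sox1-GFP cells the limma fit gave 0.15 ± 0.13 for Olig1 (adjusted p = 0.374) and 0.30 ± 0.13 for Olig2 (adjusted p = 0.0665), and neither was called.

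**Figure D2:**
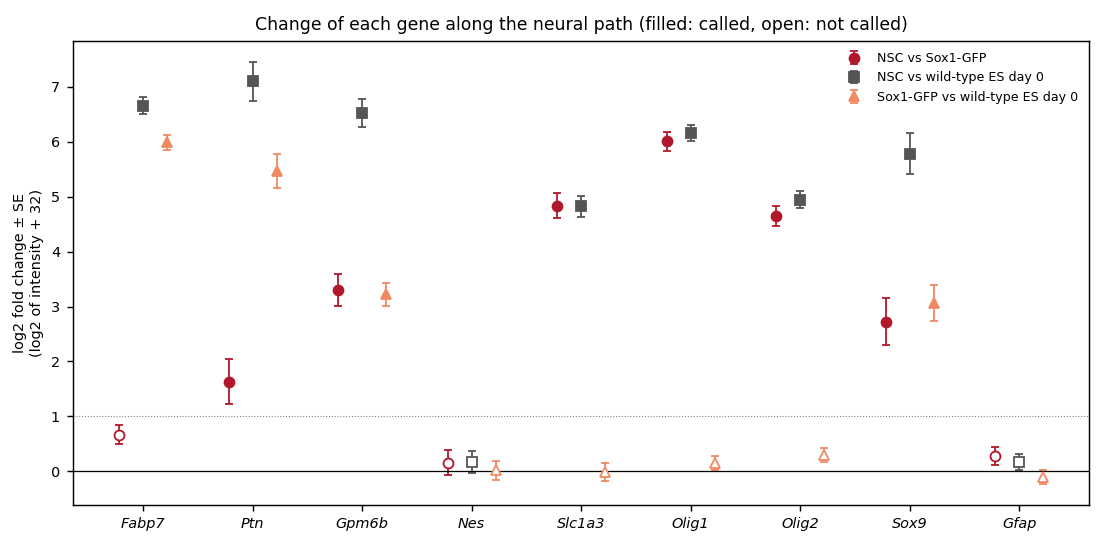
Log2 difference ± SE of the 9 genes on log2(intensity + 32) in NSC against Sox1-GFP cells, NSC against WT day 0 and Sox1-GFP cells against WT day 0, with filled points for called genes and open points for the others. Slc1a3, Olig1 and Olig2 sit near 0 in Sox1-GFP cells against WT and at 4.65 to 6.01 in NSC against Sox1-GFP cells, while Fabp7 shows the reverse, at 5.99 and 0.67.

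The 3 probe sets of nestin did not give the same answer. Between NSC and Sox1-GFP cells the leading one was not called, whereas the others were higher in NSC. The leading one was 454 to 501 in NSC, 414 to 433 in Sox1-GFP cells and 358 to 470 in WT at day 0, and it was not called in any of the 23 comparisons. The next probe set gave 2199 and 2333 in NSC, against 681 to 801 in Sox1-GFP cells and 46.3 to 263.9 in WT at day 0. It differed by 1.59 ± 0.45 between NSC and Sox1-GFP cells (limma adjusted p = 0.0043, over 25016 probe sets), by 3.8 ± 0.4 between NSC and WT and by 2.21 ± 0.34 between Sox1-GFP cells and WT. Within WT at day 0 it split, at 46.3 to 58.4 in replicates 1 to 3 and 193.8 to 263.9 in replicates 4 to 7. The third, dim probe set gave 107 and 115 in NSC and 20.3 to 30.0 in Sox1-GFP cells, a difference of 1.33 ± 0.37. With all 3 probe sets averaged, Nes was called higher in NSC than in Sox1-GFP cells (1.02, limma adjusted p = 0.00711). It was also called against WT at day 0 (1.79, adjusted p = 3.48e-07) and MEF (2.01, adjusted p = 4.59e-06). Which probe set follows the nestin transcript was not tested.

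Gfap was not called between the neural groups in any of its 3 probe sets. The leading one gave 98.2 and 96.5 in NSC, against 68.9 to 79.4 in Sox1-GFP cells and 75 to 92.8 in WT at day 0. Among all probe sets of an array these lie at the percentiles 59.7 and 59.8 in NSC and 53.8 to 56.4 in Sox1-GFP cells. NSC differed from Sox1-GFP cells by 0.27 ± 0.16 (limma adjusted p = 0.179) and from WT by 0.17 ± 0.14 (limma adjusted p = 0.307). For this leading probe set the NSC arrays lay above all Sox1-GFP and WT day 0 arrays, but neither difference was called. Another probe set gave 22.3 and 24.5 in NSC and 21.3 to 25.5 in Sox1-GFP cells.

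**Figure D3:**
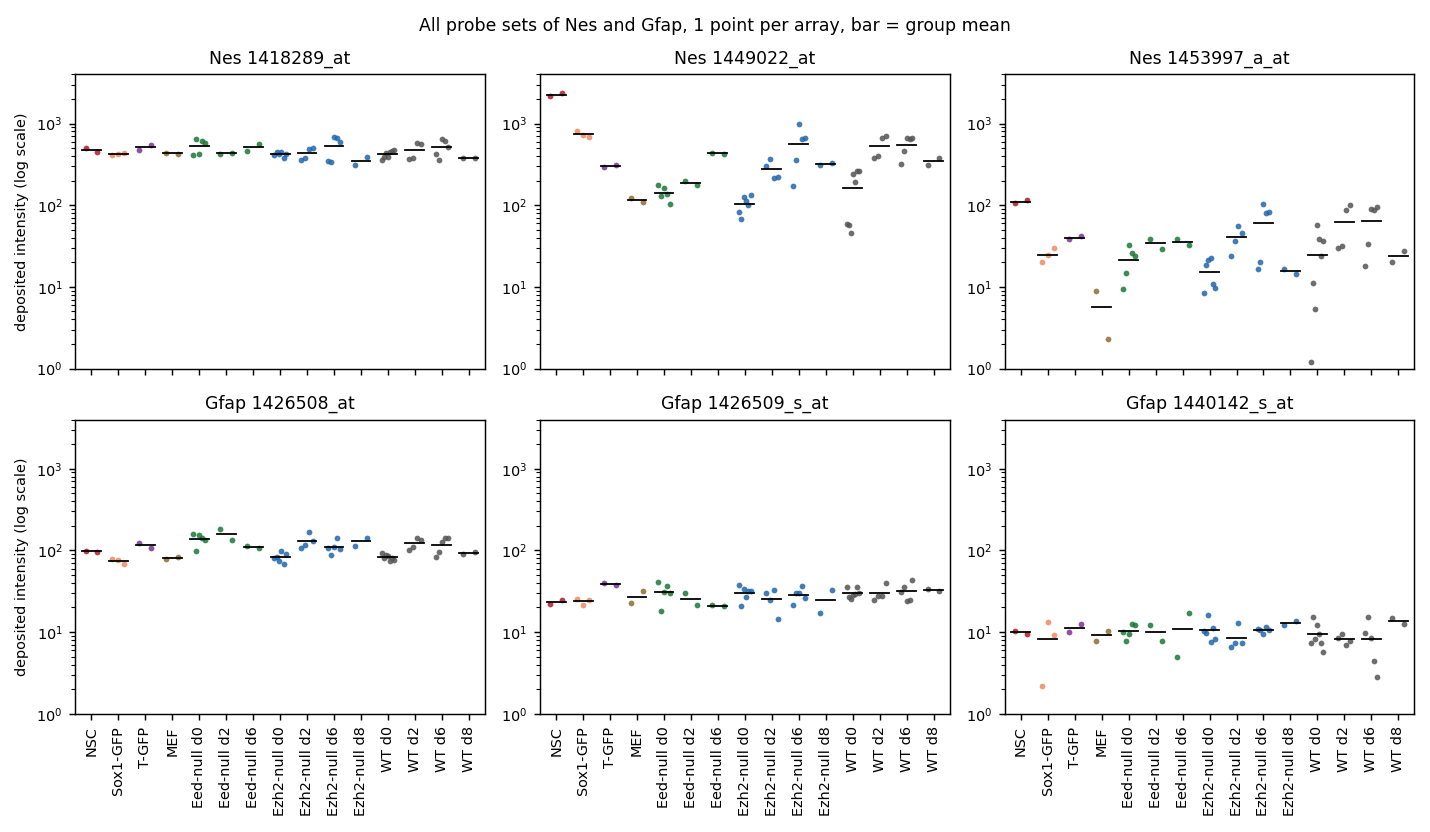
Array intensity (log axis, arbitrary intensity units) of the 3 probe sets of Nes and the 3 of Gfap in every group, 1 point per array with a bar at the group mean. The second-brightest Nes probe set reaches 2199 and 2333 in NSC whereas the leading one stays at 307 to 692 across all arrays, and no Gfap probe set stands out in NSC.

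Other genes known from radial glia and neural stem cells went both ways between the neural groups. Of 28 tested, 12 were higher and 5 lower in NSC than in Sox1-GFP cells, beside 5.53% of all genes called higher and 8.79% called lower. The median difference was 0.86 (log2), against -0.10 over all genes tested. Against WT at day 0, 19 of 28 were higher and 1 lower in NSC, and 15 were higher and 2 lower in Sox1-GFP cells. Of all genes, 12.3% and 9.33% were called higher in these comparisons, and the shares called lower are not given here. The matrix genes Tnc (4802 ± 282 in NSC, 44.4 ± 11.1 in Sox1-GFP cells), Bcan (3430 ± 251 and 48.4 ± 14.2) and Ncan (3998 ± 65.2 and 466 ± 130) were higher in NSC. So were the transcription factors Nfia (2858 ± 69.2 in NSC, 108 ± 14 in Sox1-GFP cells), Nfib (1388 ± 161 and 17.5 ± 6.1) and Nfix (998 ± 18 and 31 ± 10.7), which are known for the onset of gliogenesis. The Notch target Hes5 went the other way, at 26.7 ± 0.14 in NSC and 980 ± 63.2 in Sox1-GFP cells, a difference of -4.11 ± 0.13 (SD, n = 2 and 3; limma adjusted p = 1.7e-28). Pax6, Prom1, Id4 and Msi1 were the others called lower in NSC. Sox2, a factor of pluripotent and neural stem cells, was not called, at 3567 ± 120 in NSC, 3374 ± 234 in Sox1-GFP cells and 3443 ± 235 in WT (log2 differences of 0.08 and 0.05, limma adjusted p = 0.89 and 0.91).

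The relatives and partners of the 9 genes moved in both directions. Ptprz1, the receptor of pleiotrophin, gave 2489 ± 153 in NSC, 185 ± 31.5 in Sox1-GFP cells and 33.9 ± 8.32 in WT, and was higher in NSC than in Sox1-GFP cells by 3.55 ± 0.19 (limma adjusted p = 1.2e-19). Gpm6a, the paralog of Gpm6b, rose by 2.98 ± 0.19 in the same comparison. Mdk, the paralog of Ptn, went the opposite way, with 349 ± 36.0 in NSC, 4392 ± 282 in Sox1-GFP cells and 1309 ± 372 in WT, and a difference of -3.54 ± 0.23 between NSC and Sox1-GFP cells. Fabp3 was also lower in NSC, with a difference of -2.02 ± 0.26, and Fabp5 differed by 0.86 ± 0.27, under 2-fold. Vim, the filament partner of nestin, gave 6163 ± 215 in NSC and 6168 ± 200 in Sox1-GFP cells, both above 2132 ± 491 in WT. Sdc3, Synm, Slc1a1 and Sox10 were not called between NSC and Sox1-GFP cells, and Slc1a2, Olig3 and Sox8 did not pass the filter.

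Genes of mature astrocytes moved both ways and most of the oligodendrocyte list was not called. Of 8 astrocyte genes tested, 2 were higher and 2 lower in NSC than in Sox1-GFP cells, beside 5.53% of all genes called higher and 8.79% called lower. Aldoc (2436 ± 103 in NSC, 231 ± 18.6 in Sox1-GFP cells) and Glul (3250 ± 218 in NSC, a difference of 1.26 ± 0.27) were higher in NSC, and Apoe (43.0 ± 2.9 and 555 ± 149) and Fgfr3 (126 ± 9.05 and 337 ± 61.8) were lower. Of 7 oligodendrocyte genes tested, Cnp alone was called, at 515 ± 13.1 in NSC and 135 ± 25.7 in Sox1-GFP cells. Sox10, Cspg4 and Mbp were not called in this comparison, at 49.2 ± 9.48, 84.8 ± 1.91 and 92.1 ± 2.97 in NSC.

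Compared with the other cells that had left the ES state, the 9 genes were not alike. NSC were higher than MEF in 7 of the 9 genes, where 8.21% of genes were called higher. That count again includes Olig1 and Olig2, whose calls were built into the filter on low values. MEF were themselves higher than WT at day 0 in Ptn and Sox9, with 2 of 9 beside 14.2% of genes called higher. Ptn gave 938 and 1027 in MEF and 8.4 to 16.8 in WT, a difference of 4.51 ± 0.36 (limma adjusted p = 1.23e-14). Sox9 gave 447 and 521 in MEF and 1.0 to 7.6 in WT, a difference of 3.85 ± 0.38, so that its MEF level lay above that of Sox1-GFP cells with no overlap. Slc1a3 was lower in MEF than in WT by -0.80 ± 0.19 (limma adjusted p = 0.000484), without overlap but under 2-fold. It was called with a pseudocount of 8 (-1.08), with the replicate block (-1.06) and with J1 as the only WT line (-1.06). With all Slc1a3 probe sets averaged it was -0.38. Sox1-GFP cells were higher than T-GFP cells in Fabp7 (5.37 ± 0.18), Ptn (4.97 ± 0.41) and Gpm6b (2.77 ± 0.28), with 3 of 9 beside 6.49% of genes. The Sox9 difference of 1.03 ± 0.43 missed the threshold (limma adjusted p = 0.0582). Sox9 was called there with arrays centred on their median (1.03, adjusted p = 0.0498), with only the arrays compared (1.03, adjusted p = 0.000372) and with the replicate block (1.06, adjusted p = 3.84e-05), and under none of the other alternatives run. T-GFP cells gave 101 and 127 for Sox9, higher than WT at day 0 by 2.03 ± 0.38 (limma adjusted p = 2.9e-05), the 1 call of 9 beside 5.56% of genes. With all Sox9 probe sets averaged that difference was 0.93, under 2-fold.

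During LIF withdrawal, no call was made for Slc1a3, Olig1 or Olig2 in WT cells at any day. Sox9 was called from day 6 and Ptn at day 8. Earlier calls of Ptn and Fabp7 depended on the processing, among it the array set block, the pseudocount, the fold limit and the WT line. No member was called at day 2 against day 0, where 3.43% of genes were called in either direction by limma. At an unadjusted p under 0.05 there were 3, namely Ptn (0.77 ± 0.28, limma adjusted p = 0.0286), Gfap (0.42 ± 0.11, adjusted p = 0.00345) and Gpm6b (0.40 ± 0.19, adjusted p = 0.108). Ptn gave 60.2 and 86.7 in the WT day 2 arrays of the first set and 27.9 and 19.1 in those of the second, against 8.4 to 16.8 at day 0. Arrays of day 0 were not scored for the set and are counted outside the second one. Calls against day 0 with array set as a block rest on that choice. All 4 day 2 arrays lay above every day 0 array. With array set as a block Ptn was called at day 2, at 1.33 ± 0.18 (limma adjusted p = 9.07e-08), and the J1 arrays alone called it at 1.3 (adjusted p = 0.0277). Under the same block neither Gfap nor Gpm6b was called. At day 6 Sox9 alone was called, 1 of 9 beside 5.96% of genes called higher. It gave 147, 184, 68.9, 66.1 and 81.0 in the 5 WT arrays at day 6, against 1.0 to 7.6 at day 0, a difference of 1.91 ± 0.28 (limma adjusted p = 1.39e-07). The first 2 values belong to the first array set and the other 3 to the second. The other 2 Sox9 probe sets differed by 0.57 and 0.61, under 2-fold. Fabp7 at day 6 gave 66.0 to 88.9, all above the 17.8 to 34.5 of day 0, and differed by 0.88 ± 0.11 (limma adjusted p = 1.3e-08). With array set as a block 3 members were called at day 6, Sox9, Ptn at 1.40 (limma adjusted p = 3.57e-09) and Fabp7 at 1.06 (adjusted p = 3.94e-11).

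At day 8, Ptn and Sox9 were called, 2 of 9 beside 7.71% of genes called higher. Ptn gave 425 and 403 at day 8 and differed from day 0 by 3.32 ± 0.36 (limma adjusted p = 4.1e-10). Sox9 gave 244 and 288 and differed by 3.06 ± 0.38 (limma adjusted p = 1.03e-08). At the same day 8 of 13 fibroblast genes and 7 of 10 endoderm genes tested were higher than at day 0, and the fibroblast sum was 7967 to 9012 at day 8 against 638 to 2118 at day 0. The neural genes of the list of early progenitors were mixed, with 3 of 16 higher and 2 lower. The part of these cell types in the Ptn and Sox9 signals was not tested. Fabp7 at day 8 differed by 0.90 ± 0.16, and Slc1a3, Olig1 and Olig2 by -0.25 to 0.09, with none of these called.

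In the Polycomb mutants, Fabp7 was the 1 member called against WT, at day 6. No member was called in Ezh2-null cells at day 0, where 0.0507% of genes were called in either direction, or at day 2 (0.123%), and 0 members had an unadjusted limma p under 0.05 at either day. Within the array sets the Ezh2-null differences at day 2 lay between -0.15 and 0.10 in the first and between -0.32 and 0.65 in the second, none called (limma adjusted p of 0.611 or more). At day 6 Fabp7 gave 32.1, 34.0, 8.4, 15.8 and 20.2 in Ezh2-null cells, against 76.1, 66.0, 88.9, 75.9 and 68.5 in WT. Every Ezh2-null array lay below every WT array. The difference was -1.01 ± 0.12 (limma adjusted p = 2.84e-08), the 1 call of 9 beside 1.14% of genes called lower. With same-numbered replicates as a block the limma adjusted p was 0.00262, and with only the arrays compared it was 0.00162. Within the first array set the difference was -0.66 (2 against 2 arrays, limma adjusted p = 0.0172), and within the second it was -1.23 (3 against 3, adjusted p = 2.06e-08). All of these signals are low beside the 3577 and more in the neural cells, and the largest WT value is 88.9. The difference lies at the 2-fold limit, and its size depends on the pseudocount. It was -1.54 with a pseudocount of 8 and -0.44 with one 4 times higher than 32, which ended the call. With cell line as a random block it was -0.97, with CJ7 as the only WT line -0.97 (where Ptn was called instead, at 1.09), and without Ezh2-null replicate 3, 4 or 5 or WT replicate 3 it was -0.91, -0.97, -0.998 and -0.96, all short of the limit though with limma adjusted p-values of 4.26e-05 or less. In the same comparison 8 of 9 primitive streak and mesoderm genes tested were lower (median -2.90) and 8 of 10 pluripotency genes were higher (median 1.31), beside 1.14% of genes called lower and 1.89% called higher. The summed streak and mesoderm signal was 585 to 815 in Ezh2-null cells, against 2676 to 8550 in WT, and the pluripotency sum was 5047 to 18358 against 6183 to 7683. Their part in the Fabp7 difference was not tested.

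In cells labelled Eed-null, Fabp7 gave 5.0 and 16.6 at day 6, lower than WT by -1.33 ± 0.16 (limma adjusted p = 6.6e-08), the 1 call of 9 beside 1.25% of genes called lower. Within the second array set, which holds both of these arrays, the difference was -1.37 (limma adjusted p = 4.13e-07). Over the alternatives it lay between -2.21, with a pseudocount of 8, and -0.55, with the one 4 times higher than 32, which ended the call, and both groups' signals are dim, the mutant ones under the array median. Here too 8 of 9 streak and mesoderm genes were lower (median -2.72) and 7 of 10 pluripotency genes were higher (median 1.76), beside 1.25% and 1.85% of all genes, and their part was not tested. The 2 mutants were compared with the same WT arrays. At day 8 Ezh2-null cells gave 24.0 and 32.7, against 71.9 and 79.9 in WT, a difference of -0.84 ± 0.19 (limma adjusted p = 0.00768), under 2-fold. Without WT replicate 1 or 2 or Ezh2-null replicate 1 the limma adjusted p was 0.0782, 0.123 and 0.13. With a pseudocount of 8 the value was -1.22 and called, and with the one 4 times higher than 32 it was -0.38. With the pseudocount of 32 no member was called there beside 1.06% of genes. Fabp7 was the 1 member with an unadjusted p under 0.05 at that day. The change from day 0 to day 6 was itself tested. It was lower in cells labelled Eed-null than in WT by -1.25 ± 0.20 (limma adjusted p = 1.67e-05), called, beside 2.41% of genes called lower, and lay between -2.07 and -0.52 over the alternatives, with the call lost at that higher pseudocount. The Ezh2-null value was -0.999 ± 0.16 (limma adjusted p = 2.43e-05), under 2-fold, with 3.09% of genes called in either direction, and lay between -1.53 and -0.44. Against their own day 0, Fabp7 was not called in either mutant at day 6, with differences of -0.12 ± 0.12 in Ezh2-null cells and -0.37 ± 0.16 in cells labelled Eed-null.

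**Figure D4:**
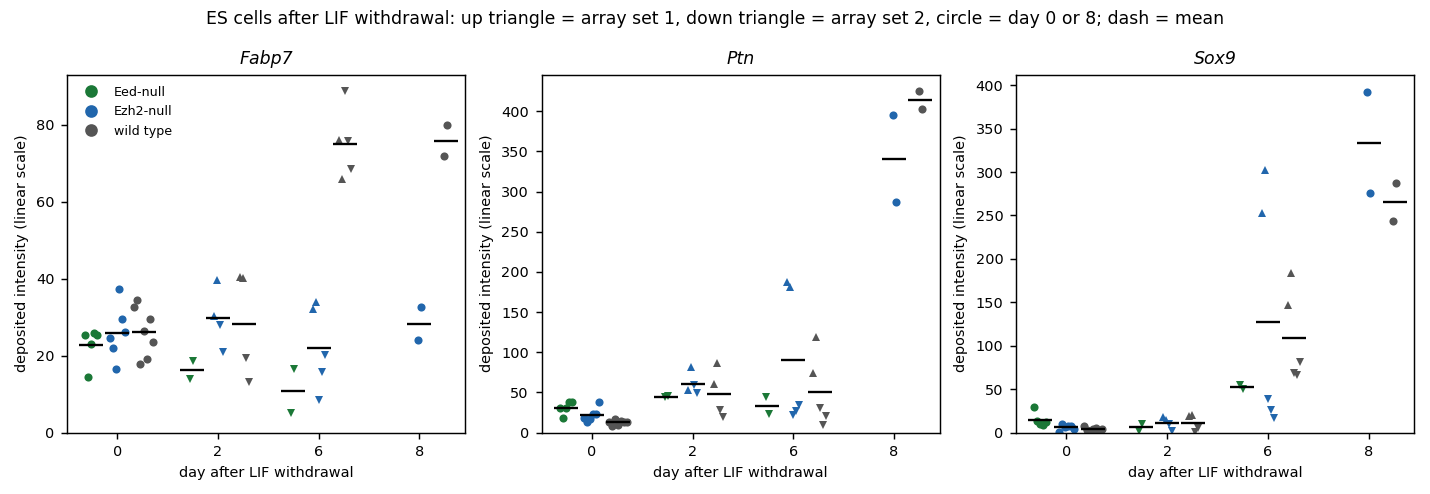
Array intensity (linear axis from 0, arbitrary intensity units) of Fabp7, Ptn and Sox9 by day of LIF withdrawal in Ezh2-null cells, cells labelled Eed-null and WT cells, 1 point per array, with the symbol giving the array set. Fabp7 at day 6 is 8.4 to 34.0 in Ezh2-null and 5.0 and 16.6 in cells labelled Eed-null, below the 66.0 to 88.9 of WT, and Sox9 at day 6 falls into a high and a low range by array set.

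Sox9 and Ptn at day 6 split by array set within the Ezh2-null and WT groups. Sox9 gave 253 and 302 in Ezh2-null replicates 1 and 2 and 17.3 to 38.3 in replicates 3 to 5, against 147 and 184 in WT replicates 1 and 2 and 66.1 to 81.0 in replicates 3 to 5. The pooled difference was -0.24 ± 0.30 (limma adjusted p = 0.64). Within the first set it was 0.65 (2 against 2 arrays, limma adjusted p = 0.0273) and within the second -0.83 (3 against 3, adjusted p = 5.57e-05). The sign of the Sox9 difference thus turned between sets, but both values were under 2-fold and not called. With all Sox9 probe sets averaged the pooled difference was -0.16 (limma adjusted p = 0.499). Ptn gave 188 and 182 in Ezh2-null replicates 1 and 2 and 22.4 to 34.3 in the others, against 74.6 and 119 in WT replicates 1 and 2 and 9.3 to 30.6 in the others. Its differences were 0.77 in the first set and 0.21 in the second, both under 2-fold. Relative to day 0, Ezh2-null cells at day 6 were higher in Sox9 by 1.59 ± 0.28 (limma adjusted p = 5.88e-06), 1 of 9 beside 8.64% of genes called higher. Without replicate 1 or 2 that value was 1.26 and 1.20, and with all Sox9 probe sets averaged it was 0.79, under 2-fold. With array set as a block Sox9 remained called and Ptn was called too, at 1.57 (limma adjusted p = 2.5e-10). Cells labelled Eed-null gave 54.4 and 50.2 for Sox9 at day 6, a difference of 0.87 ± 0.39 from their day 0 (limma adjusted p = 0.0732), and no member was called there beside 10.1% of genes, with 2 (Fabp7 and Sox9) at an unadjusted p under 0.05. With array set as a block both Sox9, at 1.99 (limma adjusted p = 6.34e-07), and Ptn, at 1.16 (adjusted p = 0.000349), were called. All arrays labelled Eed-null at day 6 lie in the second set. Those of day 0 were not scored and are counted outside it, so that block rests on the other genotypes.

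The remaining mutant comparisons made no call among the 9 genes. In cells labelled Eed-null 2.26% of genes were called against WT at day 0 and 1.04% at day 2, and against Ezh2-null cells 2.2% at day 0 and 0.739% at day 6. At an unadjusted limma p under 0.05 there were 3 members against WT at day 0 (Nes, Slc1a3 and Gfap), 2 against Ezh2-null cells at day 0 (Slc1a3 and Gfap) and 0 in the other 2 comparisons. Within the second array set, which holds both arrays labelled Eed-null at day 2, the differences from WT at that day lay between -0.38 and 0.47, none called (limma adjusted p of 0.548 or more). Gfap gave 99.1 to 158.9 in cells labelled Eed-null at day 0, against 75 to 92.8 in WT, a difference of 0.55 ± 0.10 (limma adjusted p = 4.08e-05) that was under 2-fold. Slc1a3 differed by -0.43 ± 0.14 in the same comparison (limma adjusted p = 0.0134), and its groups overlapped. At that day 6 of 13 fibroblast genes and 5 of 10 endoderm genes tested were higher in cells labelled Eed-null than in WT, beside 1.52% of all genes. The fibroblast sum was 751 to 7920 against 638 to 2118 in WT, the endoderm sum was 1911 to 4427 against 552 to 993, and their part in the Gfap and Slc1a3 values was not tested. For Olig1, Olig2 and Slc1a3 no mutant array came near the NSC values. Olig1 was at most 33.6, Olig2 at most 22.7 and Slc1a3 at most 140.3 in the mutant arrays.

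Over the 15 group means of log2(intensity + 32), Olig1 and Olig2 followed each other most closely (Pearson r = 0.998), with Slc1a3 next to them (r = 0.976 with Olig1 and 0.974 with Olig2). Fabp7 was closest to Gpm6b (r = 0.935) and Ptn to Sox9 (r = 0.90). The groups are not independent, since they share lines and array sets, and no p is given. The values of Olig1, Olig2 and Slc1a3 rest on NSC. Over the other 14 groups, an alternative chosen after seeing the data, r was 0.49 between Olig1 and Olig2. It was 0.000683 between Slc1a3 and Olig1 and -0.00393 between Slc1a3 and Olig2. Fabp7 and Gpm6b kept 0.933 and Ptn and Sox9 0.83. Among these 14 groups Fabp7 averaged 3654 in Sox1-GFP cells and at most 75.9 in any other. Gpm6b averaged 515 in Sox1-GFP cells and at most 80.85 in any other, so the r of Fabp7 and Gpm6b also leans on 1 high group. Outside the 9 genes, the pattern most like Olig1 was that of Mlc1 (r = 0.999), which gave a mean of 475 in NSC, 1.0 in Sox1-GFP cells and 1.0 in WT at day 0, followed by Grm5 and Pcdh11x. Without NSC the r of these 3 with Olig1 was -0.13, -0.33 and 0.15, so the likeness is to 1 high group. Olig2 was closest to Nptx1, Mlc1 and Slc25a18, and Slc1a3 to Frmd3, Grm3 and Tlcd4, with r between -0.11 and 0.61 without NSC. Fabp7 was closest to Hddc3 (r = 0.981), Pou3f3 (0.979) and Lrrn1 (0.977), where Pou3f3, a POU factor of neural progenitors, averaged 2971 in NSC, 1116 in Sox1-GFP cells and 9.5 in WT. Gpm6b was closest to Npas3 (r = 0.99), Adcyap1r1 and Astn1. Ptn was closest to Scai, Hacd3 and Mmab, and Sox9 to Pcdhb22, Prkar1a and Fam168b. The leading Nes probe set had no close match beyond r = 0.858 (Il1b), and for Gfap the nearest was Tssk1 (r = 0.946).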

How the data were processed

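Total RNA extracted with Trizol was hybridised as biotinylated cRNA, per the labels' protocols. The authors deposited 1 linear intensity per probe set and array, and the method of summarising and scaling is not stated in the labels. Array medians on the log2(intensity + 32) scale ranged over 0.204, under the limit of 0.3 for renormalisation. Of 45037 probe sets, 34945 had exactly 1 symbol, 932 several and 9160 none, and 34741 were matched to a RefSeq gene table, which changed 0 symbols. Genes were represented by their brightest probe set, and the 13807 above the array median in at least 2 arrays were tested.

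Groups came from the sample titles. limma 3.58.1 (R 4.3.3) fitted 1 mean per group to all 53 arrays, leaving 38 residual degrees of freedom beside 4.64 from the prior. P-values were adjusted by the Benjamini-Hochberg method in each of 23 comparisons, and calls needed adjusted p under 0.05 with a change of 2-fold or more. Changes of dim genes are understated by the pseudocount of 32. The fit was tested on simulated data. Text names all 9 members, their paralogs and partners, per list up to 4 genes of smallest p, and the 3 genes most like each member; other list genes (among them Tnc, Nfia, Nfib, Nfix, Pax6, Prom1, Id4, Msi1 and Sox2) were named after their values were seen. The members, lists and most alternatives were chosen with earlier results of these data known.

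Array sets came from the leading component (57.1%) of differences within 5116 same-gene pairs of probe sets, and 14 arrays form the second set. Only arrays of days 2 and 6 were scored, and all others were counted outside the second set. No pair of arrays was a duplicate (0 found). Same-numbered Ezh2-null and WT replicates deviated together at day 2 (r from 0.57 to 0.70, 4 pairs) and day 6 (0.38 to 0.72, 5 pairs), so those numbers were read as pairs; the array sets follow the same numbers. Other comparisons with 3 or more pairs did not pair. Alternatives were 2 other pseudocounts, other scalings and filters, averaged probe sets, blocks for replicate, line and array set, single WT lines, no minimum fold and each array left out.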

Additional observations from a re-analysis of the deposited data

Results flagged for a closer look

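Of 63 groups of 4 to 10 arrays tested for a single array far from the rest, 4 stood out, and chance alone flags about 1 in 20 such groups. Fabp7 was 14.5 in replicate 2 of the cells labelled Eed-null at day 0, with the other 4 between 23.1 and 26. Sox9 was 29.3 in replicate 1 of the same group, with the others between 8.5 and 13. Slc1a3 was 84.1 in WT replicate 1 at day 6, with the others between 61.7 and 66. Olig1 was 13.7 in WT replicate 1 at day 2, with the others between 22.6 and 24.2.

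The change of Fabp7 from day 0 to day 6 differed between cells labelled Eed-null and WT by -1.25 on the log2 scale in the test of that difference.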

How the results depend on the processing

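Counts of called members were recomputed 547 times and moved by more than 1.5 times in 59, none of them in NSC against Sox1-GFP cells, NSC against WT or MEF, or Sox1-GFP cells against WT or T-GFP cells. With a pseudocount of 8 the counts were 1 for WT day 2, 3 for WT day 6, 1 for Ezh2-null against WT at day 8, 2 and 1 for Ezh2-null and Eed-null cells at day 6 against day 0, and 1 for the Ezh2-null change over time. With a pseudocount 4 times higher than 32 they were 0 for T-GFP cells, WT day 6, Ezh2-null day 6 against WT and against day 0, Eed-null day 6 against WT and the Eed-null change over time. Averaged probe sets gave 0 for T-GFP cells. They called Nes higher in NSC than in Sox1-GFP cells, WT at day 0 and MEF. In Ezh2-null cells at day 6 against day 0 they called Nes (1.02) and no longer Sox9. Only the arrays compared gave 2 for the Eed-null change over time. Arrays centred on their median, WT replicates 4 to 7 alone and CJ7 alone each gave 1 for the Ezh2-null change over time. A random block for line gave 0 for Ezh2-null against WT at day 6. An array set block gave 1 for WT day 2, 3 for WT day 6, and 2 for each mutant at day 6 against day 0. J1 alone gave 1 and 2 for WT days 2 and 6. Without the fold limit the counts were 4 for MEF, 3 for T-GFP cells, 2 and 4 for WT days 2 and 6, 1 for Ezh2-null day 8, 2 for Eed-null against WT and against Ezh2-null cells at day 0, 4 for Ezh2-null day 6 against day 0, and 1 and 2 for the Ezh2-null and Eed-null changes over time. Leaving out each array gave 0 to 1 for the Ezh2-null change over time, 0 to 1 for Ezh2-null against WT at day 6, and 1 to 2 for Ezh2-null day 6 against day 0.

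The replicate block kept Fabp7 called in Ezh2-null cells at day 6 (-1.005, limma adjusted p = 0.00262, 1 member). It moved the count to 2 for Eed-null against WT and against Ezh2-null cells at day 6, where samples share only a number, and changed no other count by over 1.5 times. With the second-brightest Nes probe set, chosen after seeing the data, the counts were 2 for T-GFP cells, 1 for WT day 2, 2 for WT day 6 and 2 and 1 for Ezh2-null and Eed-null cells at day 6 against day 0, and Nes turned to 1.21 for Sox1-GFP against T-GFP cells, 1.19 for WT day 8 and 1.44 for Eed-null day 6 against day 0. Centring moved the median of all genes between NSC and WT at day 0 to -0.134, against 0.0201 as deposited. Dim signals, 2 arrays in several groups and the array sets limit the day 6 values; causes were not tested.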

Other observations

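Most neuronal genes tested were lower in NSC than in Sox1-GFP cells. Of 15 tested, 10 were lower and 1 higher, beside 8.79% of all genes called lower and 5.53% called higher. The median difference was -1.54 (log2), against -0.0959 over all genes tested. Against WT at day 0, Ina, Nefl, Neurod1, Stmn2 and Tubb3 were called lower in NSC, and Dcx and Map2 were called higher. Of all genes, 12.3% were called higher there, and the share called lower is not given here. Tubb3, a neuronal tubulin, gave 12.4 ± 3.54 in NSC and 573 ± 153 in Sox1-GFP cells (SD, n = 2 and 3). Stmn2, a neuronal microtubule regulator, gave 9.5 ± 0.849 in NSC and 1978 ± 435 in Sox1-GFP cells, but also 3273 ± 408 in WT at day 0. Dcx, of migrating neurons, gave 96.3 ± 6.86 in NSC and 430 ± 130 in Sox1-GFP cells. Map2 was the exception, at 3216 ± 52.3 in NSC and 553 ± 162 in Sox1-GFP cells.

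Of 16 early neural progenitor genes tested, 7 were lower and 1 higher in NSC than in Sox1-GFP cells. Of all genes, 8.79% were called lower and 5.53% higher in this comparison. Sox1 (43.5 ± 2.83 in NSC and 762 ± 23.3 in Sox1-GFP cells), Sox3 (452 ± 76.7 and 1713 ± 74.3) and Pax6 (250 ± 40.6 and 881 ± 27.3) were among the lower ones. Nr2f1 gave 1151 ± 68.1 in NSC and 974 ± 232 in Sox1-GFP cells and was not called. Of 10 genes of neural crest and cartilage, Ets1 was higher, and Col2a1 (76.1 ± 3.54 in NSC and 884 ± 39.3 in Sox1-GFP cells) and Tfap2b were lower. Of 9 streak and mesoderm genes, Fgf8 and Lhx1 were lower, and of 10 endoderm genes Col4a1 was higher.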
